A study of Homo sapiens with 6 samples.

Results

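The genes described here are 8 keratins of simple and mucosal epithelia, KRT4, KRT7, KRT8, KRT13, KRT18, KRT19, KRT23 and KRT80. They were taken by symbol from a table of 20014 genes that holds 55 keratin genes. RNA from HaCaT cells, an immortalized line of human keratinocytes, was sequenced in 6 libraries. In 3 libraries the cells carried a lentiviral CRISPR guide against STUB1 (genotype STUB1 knockout), and in 3 they carried a control guide (genotype WT); all were grown without special treatment. The labels describe sorting of the infected cells into 96-well plates, growth of colonies and an anti-STUB1 immunoblot. How many colonies stand behind the 3 libraries of a group is not given, and the spread that the p-values rest on is that between these libraries and could be technical.

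Keratins are the intermediate filament proteins of epithelial cells. Each filament is built from pairs of a type I and a type II keratin, so the genes are commonly read as partners: KRT8 with KRT18 and KRT7 with KRT19 in simple epithelia, and KRT4 with KRT13 in the suprabasal layers of mucosae such as mouth and oesophagus. Normal epidermis uses KRT5 with KRT14 in its basal layer and KRT1 with KRT10 above it, while cultured keratinocyte lines often add simple keratins. STUB1, also called CHIP, is a ubiquitin ligase that works with HSP70 and HSP90 chaperones, and mutant keratins are among the proteins it has been reported to target.

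The members share the rod domain of all keratins, which ends in a conserved stretch, the helix termination motif, where many keratin disease mutations lie. The lines show 42 coding bases around this motif for the 3 type I members that were expressed, KRT18 and KRT13, which fell, and KRT19, which did not pass. Their bases are alike there without being identical. The longest coding run that KRT18 shared with another keratin gene of the table, KRT14, lay at this motif and was 29 bases. Sequences are from the GENCODE 29 principal transcripts, 5′ to 3′ on the coding strand, and the 18 capital letters are the 6 codons at the start of the motif.
KRT18: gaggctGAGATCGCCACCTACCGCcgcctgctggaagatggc
KRT19: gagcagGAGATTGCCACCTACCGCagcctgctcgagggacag
KRT13: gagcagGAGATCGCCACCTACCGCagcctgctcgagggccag
The capital letters were identical in KRT13 and KRT18. In GRCh38 coordinates the stretch lay in exon 6 of 7 of KRT18 (chr12:52952290-52952331, plus strand), exon 6 of 6 of KRT19 (chr17:41523785-41523826, minus) and exon 6 of 8 of KRT13 (chr17:41502382-41502423, minus). The search used the codons of the motif in frame, and KRT23, the other type I member, held no match to them.

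Longer shared stretches bear on how reads could be assigned. The longest run of coding sequence that KRT13 shared with another keratin gene of the table was 66 bases, with its neighbour KRT15, and it spanned the junction of exons 2 and 3 of KRT13 (chr17:41503643-41503680 and chr17:41503416-41503443, minus strand).
KRT13 and KRT15: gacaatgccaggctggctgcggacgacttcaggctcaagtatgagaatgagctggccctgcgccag
Of all 50-base windows of the KRT13 transcript, 18.4% also occurred, on either strand, in an annotated transcript of another gene, almost all of them in AC019349.1 on the opposite strand. The share was 1.79% for KRT19, 0.42% for KRT80, 10.8% for KRT7, 4.95% for KRT23 and 0% for KRT4. KRT8 and KRT18, which have many pseudogenes, shared 37.1% and 47.6% of windows with 38 and 45 other genes, and their own exons overlap by 525 bases on opposite strands. The sources used here do not give the strand setting or the treatment of reads with several matches, so values of KRT8 and KRT18 are less certain than those of KRT19 or KRT80.

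STUB1 mRNA, the check of the labels, was 21.6, 24.7 and 23.2 FPKM in the knockout libraries and 37.8, 41.9 and 52.7 FPKM in the controls (log2 fold change -0.89, SE 0.12; limma, Benjamini-Hochberg adjusted p = 0.00125). FPKM are fragments per kilobase of transcript, scaled to the mapped fragments of a library, and levels of different genes can be compared only as far as the length used, which no source used here gives, fits each gene. The FPKM sums were 410756 to 447332 per library, and library sizes estimated from the steps between low values were 45300000 to 52600000 reads. Genes of the mitochondrial genome held 20.9% to 26.8% of FPKM in control libraries, lowest in control 3, and 26.2% to 30.8% in knockout libraries. Control 3 stood apart from the other controls (Pearson's r across genes 0.988 and 0.986, against 0.998 between controls 1 and 2). Controls 1 and 2 correlated with the knockout libraries at 0.980 to 0.989, about as closely as with control 3. Control 3 was the highest of the 6 libraries for 5 of the 6 tested members, so results are given without it where that matters. Of 13 keratinocyte markers 12 were tested, of which 4 were higher, 1 was lower and 7 did not pass (7 higher and 2 lower without control 3). The higher ones were KRT5, the basement membrane genes LAMA3 and LAMB3 (138% and 129% of control) and COL17A1, a hemidesmosome collagen (163%), and the lower one was PERP, a desmosome gene (70.6%). The calls of LAMA3 and LAMB3 were lost without any 1 knockout library or control 1 (0.0503 to 0.148), and that of PERP without knockout 2 (0.0651). LAMA3 also lost its call as TPM (0.0546) and with no filter (0.0891). TP63, the keratinocyte lineage factor, stood at 61.7 ± 6.76 FPKM in the control libraries and 62.1 ± 3.53 FPKM in those of the knockout (SD, n = 3 each, as in all such values). The marker under the filter was KRT14, the usual partner of KRT5, listed at 0.162 to 0.328 FPKM in every library. Summed marker levels ranged from 0.447 to 0.562 FPKM (knockout) and 0.448 to 0.535 FPKM (control) for 8 fibroblast genes and from 3.75 to 4.19 and 3.46 to 4.14 FPKM for 10 genes of Merkel cells, the KRT8- and KRT20-positive touch cells of skin. The Merkel cell gene KRT20 was listed at 0 to 0.024 FPKM. For 7 melanocyte genes the sums were 6.48 to 7.66 and 6.77 to 7.41 FPKM, and for 8 leukocyte genes 22.9 to 25.7 and 21.7 to 22.8 FPKM.

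As listed, simple keratins held most of the keratin FPKM in both groups. KRT7 ranked 48th by mean FPKM among 11262 tested genes in the control and 43rd in the knockout, KRT18 98th and 113th, KRT19 105th and 95th, and KRT8 156th and 221st. KRT13 ranked 184th in the control and 3017th in the knockout, and KRT80 2346th and 2028th. Within the controls the order of mean levels was KRT7, KRT18, KRT19, KRT8, KRT13, KRT80; KRT18 and KRT19 overlapped, as did KRT8 and KRT13, while the other neighbours in that order did not. In the knockout it was KRT7, KRT19, KRT18, KRT8, KRT80, KRT13, with no overlap between neighbours. These ranks and orders rest on the lengths behind the FPKM. KRT4 and KRT23 were at or close to 0 in every library. The genes tested had a mean of at least 1 FPKM over the 6 libraries, and KRT4 and KRT23 did not reach it, so 6 of the 8 members were tested.

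**Figure D1:**
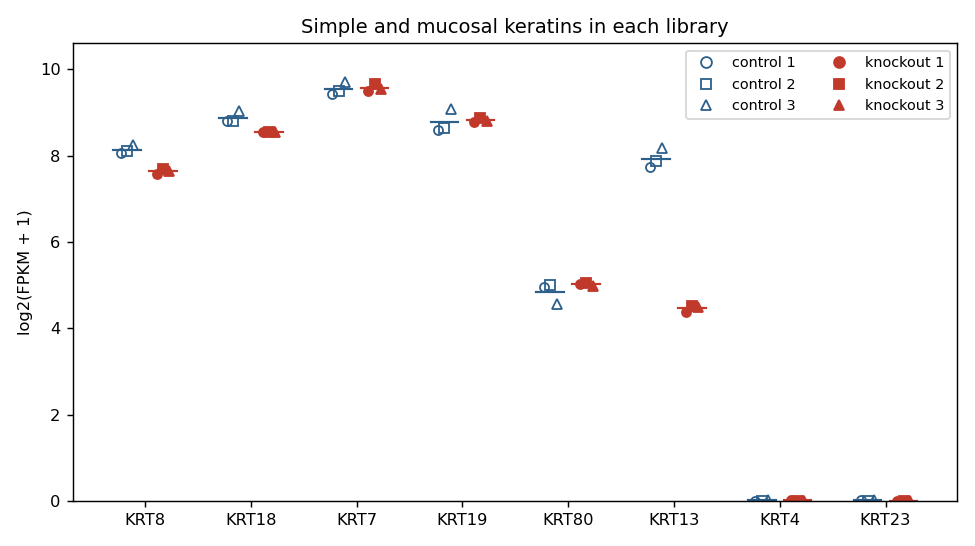
Level of each of the 8 keratins, as log2(FPKM + 1), in 3 control libraries (open blue) and 3 knockout libraries (filled red); short lines are group means. KRT13, KRT8 and KRT18 have no overlap between groups, with all knockout libraries lower, while KRT7, KRT19 and KRT80 overlap and KRT4 and KRT23 lie at the floor.

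Of the 6 tested members, 3 fell in the knockout (KRT13, KRT8 and KRT18), none rose, and KRT7, KRT19 and KRT80 did not pass. Among all 11262 tested genes 22.9% passed, 13.3% lower and 9.58% higher (limma on log2(FPKM + 1), Benjamini-Hochberg adjusted p under 0.05). Knockout libraries lay below all controls for the same 3 members and above them for none, against 25.3% and 20.4% of all tested genes (45.6% without overlap in either direction). With the values rescaled to TPM the counts over the members were the same, against 14.4% lower and 5.92% higher. The median log2 fold change was -0.15 over the 6 tested members and -0.01 over all tested genes. Without control 3 the counts were 3 lower and 1 higher, the latter KRT19, against 21.5% lower and 18.7% higher of all tested genes. In bulk RNA, fewer cells that express a keratin and less of its RNA per cell cannot be told apart.

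KRT13, the type I keratin of mucosal epithelia, had the lowest log2 fold change of all tested genes on the log2(FPKM + 1) scale. That scale understates changes of low genes, and by group means UBD (13.5-fold) and CDA (97.2-fold) fell further than KRT13. The CDA value is a ratio to a level near 0, as its knockout mean was 0.026 ± 0.0450 FPKM. AKAP12 was listed at 0 in every knockout library. All 3 of these genes had knockout means under 1 FPKM and passed the filter only through the controls. KRT13 measured 212.7, 232.8 and 287.1 FPKM in controls 1 to 3 and 19.9, 22.0 and 21.6 FPKM in knockouts 1 to 3. The groups were far apart, and the lowest control was still well above the highest knockout library. The mean was 8.67% of control, 11.5-fold lower (log2 fold change -3.46, SE 0.11, 95% interval -3.70 to -3.21; limma, Benjamini-Hochberg adjusted p = 6.0e-07; exact two-sided permutation p = 0.1, the smallest that 3 against 3 allows). Without control 3 the value was -3.34, and it ranged from -3.55 to -3.30 over all alternatives run. Exons of KRT13 share 476 bases with AC019349.1 on the opposite strand, 16.3% of its exonic length, and reads there could belong to either gene.

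KRT4, the type II partner of KRT13 in mucosae, was listed at 0.020 FPKM in knockout 1 and control 3 and at 0 in the other 4 libraries. KRT13 was therefore expressed in the controls without measurable mRNA of its usual partner, and its fall had no counterpart in KRT4. KRT23, a type I keratin first described in pancreatic cells, was listed at 0.016 FPKM in controls 1 and 3 and at 0 elsewhere. Neither allows a fold change.

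KRT8 and KRT18, the partners of the simple epithelial filament, both fell. KRT8 measured 265.3, 273.6 and 301.1 FPKM in the controls and 191.0, 206.1 and 198.4 FPKM in the knockouts. The highest knockout library stayed below the lowest control. Its mean was 70.9% of control (log2 fold change -0.49, SE 0.08, 95% interval -0.67 to -0.31; limma, Benjamini-Hochberg adjusted p = 0.00329). KRT18 measured 442.6, 446.8 and 521.8 FPKM in the controls and 372.6, 374.5 and 370.9 FPKM in the knockouts, which were nearly equal to each other. It stood at 79.2% of control (log2 fold change -0.33, SE 0.09, 95% interval -0.53 to -0.13; limma, Benjamini-Hochberg adjusted p = 0.0276). The KRT18 call was lost on leaving out any 1 knockout library (0.0904 to 0.115, limma, Benjamini-Hochberg adjusted p), at almost the same fold change. Without control 3 the values were -0.44 for KRT8 and -0.25 for KRT18, both past the threshold.

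KRT7 and KRT19, the other simple epithelial partners, did not pass. KRT7 was the most abundant keratin, at 686.5, 724.0 and 828.9 FPKM in the controls and 726.6, 809.6 and 746.2 FPKM in the knockouts, fully overlapping (log2 fold change 0.03, 95% interval -0.19 to 0.25; limma, Benjamini-Hochberg adjusted p = 0.848). KRT19, the smallest keratin and one without a tail domain, measured 387.3, 400.0 and 541.8 FPKM in the controls and 436.3, 465.9 and 448.4 FPKM in the knockouts. Control 3 lay above the knockouts and controls 1 and 2 lay below them. Its log2 fold change was 0.04 (95% interval -0.25 to 0.32; limma, Benjamini-Hochberg adjusted p = 0.846), and without control 3 it was 0.19 with adjusted p = 0.00884. The sign was not stable, being below 0 as TPM and -0.04 after a correction for GC content and length. KRT80, a type II keratin found in many epithelia, measured 29.9, 31.2 and 22.7 FPKM in the controls and 31.4, 32.1 and 30.6 FPKM in the knockouts. Controls 1 and 2 were close to the knockouts and control 3 was lower (log2 fold change 0.17, 95% interval -0.08 to 0.43; limma, Benjamini-Hochberg adjusted p = 0.281).

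**Figure D2:**
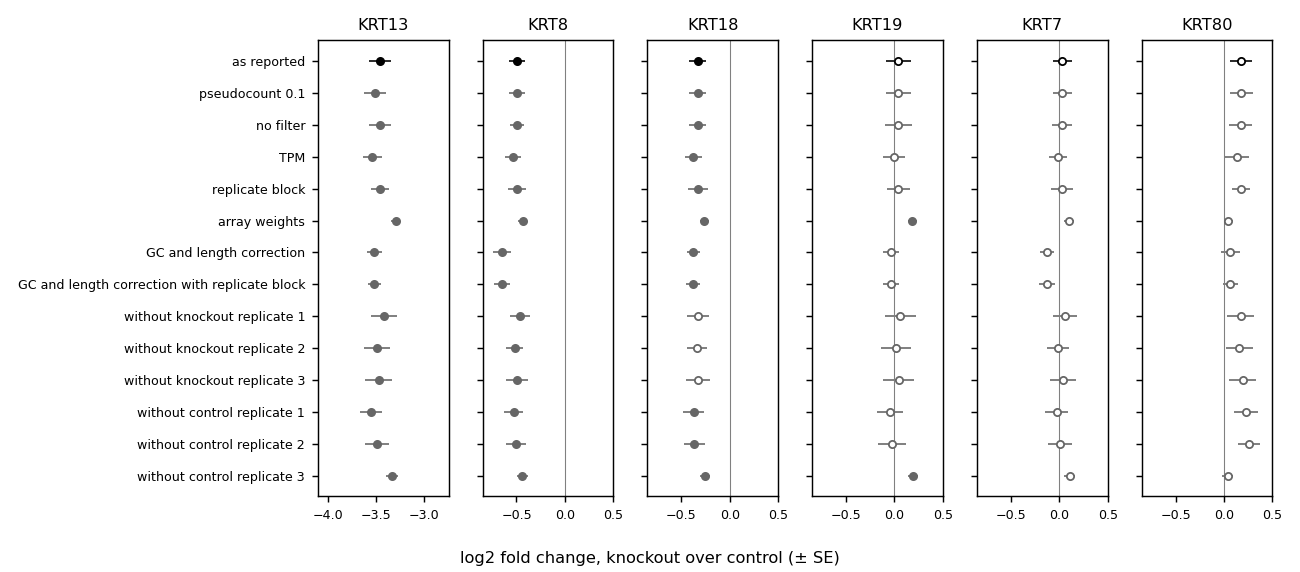
Log2 fold change of the 6 tested keratins, knockout over control, with its SE, as reported and under each alternative; filled points pass the adjusted threshold and open points do not. The KRT13 panel has its own range on the horizontal axis. KRT13 and KRT8 pass in every row, KRT18 fails without any 1 knockout library, and KRT19 passes with array weights and without control 3.

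Partner pairs were compared as the difference of log2(FPKM + 1) between 2 genes in the same library, tested over libraries by an exact two-sided permutation test. There were 8 such comparisons, 3 of named partners and 5 picked after the values were seen, and no exact p can go under 0.1 (Benjamini-Hochberg adjusted over the 8, 0.114). KRT8 fell further than KRT18. The FPKM ratio of KRT8 to KRT18 was 0.599, 0.612 and 0.577 in the controls and 0.513, 0.550 and 0.535 in the knockouts, without overlap. On the log2 scale the difference between groups was -0.16 (exact p = 0.1), a smaller change than that of either gene. After a correction of each library for GC content and length it was -0.27. The ratio of KRT7 to KRT19 was 1.70 ± 0.152 (SD, n = 3) in the control and 1.69 ± 0.0420 (SD, n = 3) in the knockout, a log2 difference of -0.01 (exact p = 1). Without control 3 it was -0.08, with no overlap (exact p = 0.2, the smallest that 3 against 2 allows), and after the GC and length correction it was -0.09 (exact p = 0.1). Since KRT4 was near 0, the KRT4/KRT13 difference of 3.46 (exact p = 0.1) only restates the fall of KRT13.

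Other pairs show where the members parted. KRT13 relative to KRT19, both type I genes of chromosome 17, went from 0.554 ± 0.0263 to 0.0470 ± 0.00132 in FPKM ratio (log2 difference -3.50, exact p = 0.1). KRT8 relative to KRT7, the type II genes of simple epithelia, went from 0.376 ± 0.0117 to 0.261 ± 0.00584 (log2 difference -0.52, exact p = 0.1). KRT18 relative to KRT19 went from 1.07 ± 0.0972 to 0.828 ± 0.0251 (log2 difference -0.37, exact p = 0.1). In each of these 3 pairs the libraries of the groups did not overlap. Each pair sets a member called lower against one that did not pass, so these differences largely restate the falls of KRT13, KRT8 and KRT18.

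**Figure D3:**
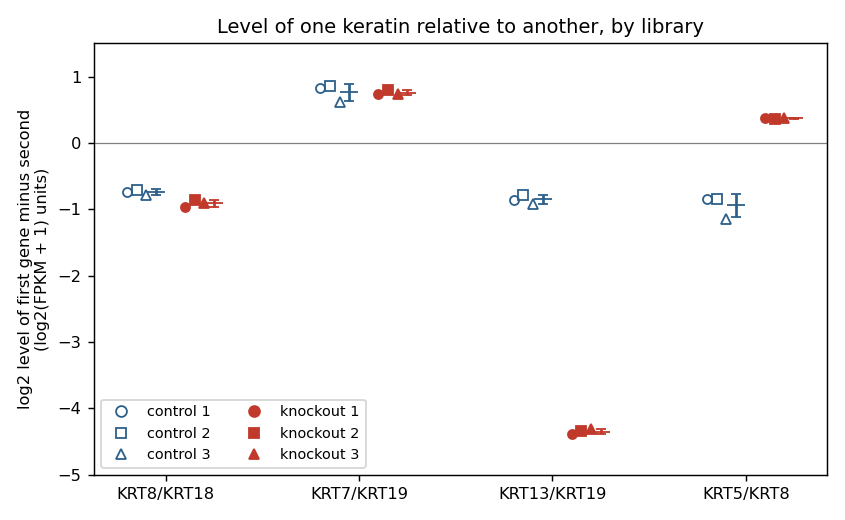
Level of one keratin minus that of another, as log2(FPKM + 1) differences, in each control (open blue) and knockout (filled red) library; bars are the group mean with its SD. KRT7/KRT19 overlaps between groups, KRT8/KRT18 is slightly lower in the knockout, KRT13/KRT19 drops from about -0.85 to -4.35, and KRT5/KRT8 rises from -0.94 to 0.37, values whose sign depends on the lengths behind the FPKM.

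Ratios between genes depend on the length the authors divided by, which no source used here states. The annotated exons of KRT8 span 6881 bases, 3.66 times its principal transcript of 1882 bases. For KRT18 the figures are 3218 and 1562 bases, 2.06 times. If the values were made with the exons and are rescaled to the principal transcripts, the KRT8 to KRT18 ratio is 1.06 ± 0.0316 in the control and 0.945 ± 0.0337 in the knockout. Such a ratio is therefore uncertain as a level, whereas a fixed length per gene cancels in its fold change between groups.

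As a share of all keratin FPKM, the 8 members took up 89.8%, 89.8% and 91.6% in the controls and 83.0%, 83.2% and 82.8% in the knockouts, without overlap (exact two-sided permutation p = 0.1; adjusted over 23 such quantities, 0.135). Rescaled to principal transcripts, an alternative added after seeing the data, 17 keratins gave 92.3 ± 0.793% and 86.7 ± 0.164%. The shares also rest on the low values listed for KRT14, KRT16 and KRT17. KRT13 went from 9.95 ± 0.535% to 0.957 ± 0.0283% of keratin FPKM. KRT8 went from 11.5 ± 0.403% to 8.98 ± 0.0632% and KRT18 from 19.2 ± 0.332% to 16.9 ± 0.549%. KRT7 took a larger share in the knockout, 34.4 ± 0.736% against 30.5 ± 0.263%, without overlap, while its FPKM overlapped between groups. Summed over the members, FPKM was 2212 ± 256 in the control and 1835 ± 68.1 in the knockout, again without overlap. With KRT13 left out the sums overlapped, at 1968 ± 218 and 1814 ± 67.2 FPKM (exact p = 0.3).

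**Figure D4:**
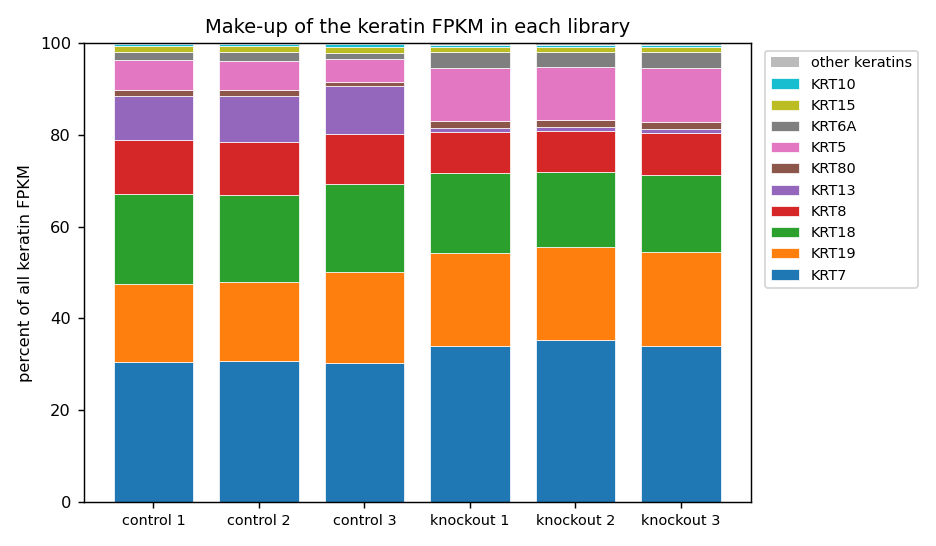
Share of each keratin in the summed keratin FPKM of each library, stacked to 100%. The KRT13 band takes 9.43% to 10.5% of the control bars and 0.929% to 0.986% of the knockout bars, and the KRT5 and KRT6A bands are wider in the knockout.

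Summed type I keratin FPKM was 1083.5, 1125 and 1405 in the controls and 864.9, 900.7 and 877.7 in the knockouts, without overlap, while summed type II FPKM overlapped, at 1242 ± 80.2 and 1329 ± 61.0. With KRT13 left out the type I sums overlapped, at 870.7, 892.1 and 1118 in the controls and 845.0, 878.7 and 856.1 in the knockouts. The ratio of type II to type I was 1.04 ± 0.0801 in the control and 1.51 ± 0.0380 in the knockout (exact p = 0.1), and 1.30 ± 0.0988 and 1.54 ± 0.0398 with KRT13 left out. The type I keratins KRT16 and KRT17 were, like KRT14, listed at under 1 FPKM (0.114 to 0.490 and 0.282 to 0.536 FPKM). KRT14 shared 23.8%, KRT16 22.0% and KRT17 17.4% of 50-base windows with other annotated genes. Whether lost reads contribute to their low values was not tested, and the ratios hold only for the values as listed.

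Of 21 listed keratins of stratified epithelia, 5 were tested. KRT5, KRT6A and KRT6B rose, KRT10 fell and KRT15 did not pass (3 higher and 1 lower, against 9.58% and 13.3% of all tested genes). KRT6B was under 1 FPKM in every control library and passed the filter only through the knockout. The count of 3 higher therefore rests partly on the filter. KRT5, the basal type II keratin, was 148.1, 152.1 and 136.1 FPKM in the controls and 247.8, 265.4 and 257.8 FPKM in the knockouts (log2 fold change 0.82, SE 0.08; limma, Benjamini-Hochberg adjusted p = 0.000267). The FPKM ratio of KRT5 to KRT8 went from 0.522 ± 0.0607 to 1.29 ± 0.00616 (exact p = 0.1). Rescaled to principal transcripts it went from 0.242 ± 0.0282 to 0.601 ± 0.00286, so which of the genes was higher in the knockout depends on the length. The pair was picked after the values were seen and sets a gene called higher against one called lower. Its difference and exact p therefore largely restate those calls. KRT6A and KRT6B, keratins of activated epidermis, went from 40.6 ± 1.46 to 76.7 ± 1.67 FPKM and from 0.674 ± 0.229 to 3.18 ± 0.0396 FPKM. They shared 39.1% and 47.1% of 50-base windows with other annotated genes, and a run of 269 coding bases with each other. Whether reads of KRT6A were counted for KRT6B was not tested, so the rises of these genes may not be independent. KRT10, of the suprabasal epidermis, was 66.6% of control (log2 fold change -0.51, adjusted p = 0.0381), a call lost without any 1 knockout library (0.107 to 0.115) and without a filter (0.0901). KRT15, a basal type I keratin, had a log2 fold change of -0.24 (adjusted p = 0.0651). Its call was gained with the replicate block (0.0494), as TPM (0.0431), after the GC and length correction (0.0201), with array weights (0.0264) and without control 1 (0.0445) or control 3 (0.0364).

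KRT13 lies at chr17:41500981-41505705 on the minus strand, and the starts of KRT15 and KRT19 lie 16.8 and 22.6 kb away. KRT15 was at 26.1 ± 0.466 against 31.1 ± 2.98 FPKM (SD, n = 3), and KRT19 did not pass, so neither of the nearest keratins changed by the size seen for KRT13. EIF1, a translation initiation factor 183.2 kb away, was lower (log2 fold change -0.35; limma, Benjamini-Hochberg adjusted p = 0.0301), a call lost on leaving out any 1 knockout library (0.0983 to 0.107) and with no filter (0.0543). Of 21 tested genes within 1 Mb, 11 were lower, none was higher, and 20 had a log2 value below 0, with a median of -0.33 against -0.01 over all tested genes, of which 13.3% were lower. The wider region showed the same sign: of 132 tested genes within 5 Mb, 63 were lower, none was higher and 117 had a value below 0, with a median of -0.25. Within 1 Mb the median was -0.33 after a correction for GC content and length and -0.29 without control 3. KRT19, with a value of 0.04, was the sole one of the 21 above 0, and all 21 were below 0 as TPM and after the GC and length correction. The largest fall among the 21, chosen after the values were seen, was NT5C3B, a nucleotidase gene (log2 fold change -1.12).

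By their gene records, the starts of KRT8 and KRT18 on chromosome 12 lie 1.08 kb apart on opposite strands (KRT8 at chr12:52897187-52949954, KRT18 at chr12:52948871-52952901). The KRT8 record covers all its annotated transcripts. The start of its principal transcript was not used, so distances from KRT8 hold for the gene record only. Of 31 tested genes within 1 Mb of KRT8, 6 were higher, 1 was lower (KRT18) and 24 did not pass. The median log2 value was 0.11 (0.03 after the GC and length correction, 0.09 without control 3), with 8 below 0 as deposited and 13 after that correction or as TPM. Within 200 kb, EIF4B, a translation initiation factor, and SPRYD3 had values of 0.01 and -0.11 and did not pass, and IGFBP6, which binds insulin-like growth factor, rose (log2 fold change 0.48; limma, Benjamini-Hochberg adjusted p = 0.0298). The IGFBP6 call was lost with no filter (0.0689) and on leaving out any 1 library other than control 3 (0.0538 to 0.141), and SPRYD3 passed as lower with array weights (0.00549) and with GC and length corrected (0.0320).

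**Figure D5:**
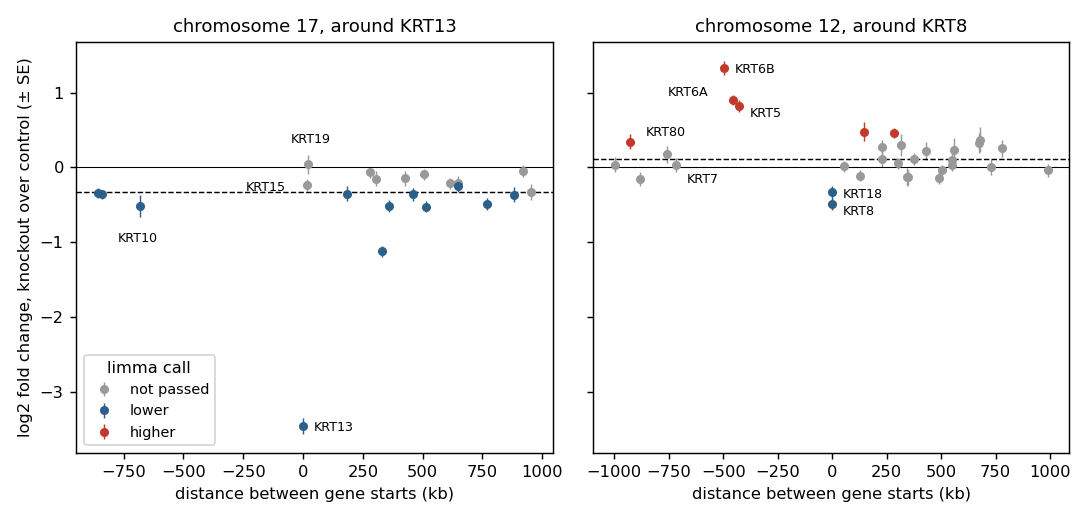
Log2 fold change of tested genes, knockout over control, with its SE, by the distance of their start from that of KRT13 (left) and KRT8 (right); dashed lines are the medians of the neighbours, -0.33 and 0.11, and colours give the limma call. KRT13 lies far below its neighbours KRT15 and KRT19, and KRT8 and KRT18 lie below most genes around them. Starts are those of the gene records, not of the principal transcripts.

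Of 15 tested surface and junction genes of simple epithelia, 3 were lower, 2 higher and 10 did not pass (against 13.3% lower and 9.58% higher of all tested genes), with a median log2 value of -0.13. CD24, a surface glycoprotein, fell from 56.8 ± 3.75 to 30.9 ± 1.48 FPKM, and EPCAM, an epithelial adhesion molecule often found together with KRT8 and KRT18, fell from 167.0 ± 25.7 to 104.9 ± 8.07 FPKM. MUC1, a membrane mucin, and SPINT1, a protease inhibitor, rose to 138% and 125% of control; MUC1 did not pass after the GC and length correction (adjusted p = 0.108), and both lost their calls without knockout 2, knockout 3 or control 1 (0.0546 to 0.0820). That correction gave 7 lower and 2 higher (15.5% and 11.8% of all tested genes), and 8 lower and 3 higher together with the replicate block (14.1% and 10.8%). Without control 3 the counts were 5 lower and 4 higher.

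Genes of mucosal squamous epithelium were mostly at low levels. Of 25 such genes, 10 were tested, and 4 were lower (SPINK5, IL1RN, PAX9 and EMP1), 1 was higher (ECM1) and 5 did not pass, against 13.3% lower and 9.58% higher of all tested genes. The counts were 4 lower and 2 higher with the replicate block and 5 lower and 2 higher without control 3. PAX9, a transcription factor of oral and oesophageal epithelium, went from 5.83 ± 0.161 to 4.04 ± 0.177 FPKM (log2 fold change -0.44; limma, Benjamini-Hochberg adjusted p = 0.00276). IL1RN, the interleukin-1 receptor antagonist, stood at 50.8% of control and EMP1, a membrane protein, at 74.9%. SPINK5, a protease inhibitor, went from 1.79 ± 0.0984 to 0.967 ± 0.0201 FPKM (54.0% of control). Its knockout mean was under 1 FPKM, so it passed the filter only through the controls. The count of 4 lower therefore rests partly on the filter. CRNN, a marker of differentiated oesophagus, was listed at 0 to 0.020 FPKM, and MAL was at 0 throughout. The median of the list was -0.17, and -0.02 after the GC and length correction.

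Among 23 tested genes whose proteins anchor or regulate keratin filaments, 3 passed, against 22.9% of all tested genes. The 3 include STUB1, the target of the guide, so the count rests partly on the design. STUB1 is also among the genes lower in the alternative fits below. PKP3, a desmosomal plakophilin, rose to 133% of control, HSPA1A, the inducible HSP70, fell to 76.8% alongside STUB1 itself, and 20 did not pass. The PKP3 call was lost without knockout 2 (adjusted p = 0.0593) and that of HSPA1A without any 1 knockout library (0.0580 to 0.0810). Without control 3 the counts were 6 higher and 5 lower, against 18.7% and 21.5%. With the replicate block 3 were higher (12.1% of all tested genes, and 14.9% lower), among them PKP1 (log2 fold change 0.31, adjusted p = 0.0270). PLEC, encoding plectin, which links keratins to other filaments, was at 21.1 ± 1.80 against 14.3 ± 5.06 FPKM, lowest in control 3 (adjusted p = 0.0744). It passed as higher in the block fit (0.0133), with array weights (0.000292) and without control 2 (0.00851) or control 3 (0.0125). Of other intermediate filament genes LMNA, LMNB1 and LMNB2, the lamins, were tested and did not pass; LMNB2 passed with the replicate block (0.0378) and without control 2 (0.0242) or control 3 (0.0468), and LMNA without control 3 (0.00428). With array weights both passed (0.00262 for LMNB2 and 8.03e-05 for LMNA). VIM, the mesenchymal vimentin, was under the filter at 0.530 ± 0.0178 against 0.249 ± 0.0492 FPKM.

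By the root-mean-square distance of centred log2(FPKM + 1) values over the 6 libraries, the 4 tested genes with a pattern closest to KRT13 were UBD, AKAP12, CDA and BLMH. UBD, which encodes the ubiquitin-like protein FAT10, lay at a distance of 0.50 and went from 8.64 ± 2.11 to 0.641 ± 0.189 FPKM. AKAP12, an anchoring protein of protein kinase A, was listed at 0 in every knockout library, and BLMH, a protease on chromosome 17, went from 15.9 ± 1.13 to 4.32 ± 0.190 FPKM. The distances of AKAP12, CDA, a cytidine deaminase, and BLMH were 0.77, 0.86 and 0.90. UBD, AKAP12 and CDA had knockout means under 1 FPKM and were tested only through their control levels. For KRT8 the closest were ACTG1, a cytoplasmic actin, NHERF1, a scaffold of apical membranes, PROCR, the protein C receptor, and PSMC5, a proteasome ATPase, at distances of 0.02 to 0.03, with 69.0% to 73.3% of control. ACTG1, NHERF1 and PSMC5 lie on chromosome 17, as does BLMH, and PROCR lies on chromosome 20. UBD and AKAP12 lie on chromosome 6 and CDA on chromosome 1. The share of tested genes on each chromosome was not counted.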

How the data were processed

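The authors deposited 1 FPKM value per gene and library, for poly(A)-selected RNA. Tools listed in the submitters' processing notes, without roles, are HISAT2 2.0.5, Cufflinks, featureCounts 1.6.3, Trimmomatic 0.36 and edgeR 3.6.3, with build GRCh38.p13. FPKM are not counts, so no count test was run. Low values gave estimated depths, but only 63.2% to 68.0% lay within 0.15 of whole reads, so no counting intervals were made. Of 20014 gene identifiers, 19991 were named from a gene name table and 23 from GENCODE; positions and sequences are from GENCODE 29 (GRCh38). The RefSeq promoter table held 2 members, and no promoter is printed. Some sequences and 1 gene are not reported here.

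Genes with a mean of at least 1 FPKM were tested with limma 3.58.1 (R 4.3.3) on log2(FPKM + 1), a scale that understates changes of low genes, with genotype as sole term, an intensity trend and Benjamini-Hochberg adjustment at 0.05. Exact permutation tests used scipy 1.17.1. The scripts were tested on simulated data. Alternatives were a pseudocount of 0.1, no filter, TPM, replicate block, array weights, GC and length correction, and leaving out each library. Replicate numbers are shared between groups; deviations from the group means correlated at 0.375, 0.150 and 0.188 between same-numbered libraries, each above 0.1, so same-numbered libraries were treated as pairs in the block, although no label states a shared batch.

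Members, lists and tests were chosen with earlier results of these data known. Named genes are the members, STUB1, stratified keratins, up to 4 members of each list with the smallest p, the 4 profiles closest to KRT13 and KRT8, and tested genes within 200 kb of those 2. Others were named after their values were seen.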

Additional observations from a re-analysis of the deposited data

How the results depend on the processing

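KRT13 and KRT8 kept their direction and their call under all 13 alternatives, and the count of called members was 3 in all alternatives not named here. Array weights, whose fit did not fully converge, and leaving out control 3 called 4, KRT19 being the addition (log2 fold change 0.18 and 0.19). Leaving out a library gave 2 to 4 called members (2 without any 1 knockout library). The number of called genes was 2579, ranged from 1030 (without knockout 2) to 4521 (without control 3) on leaving out a library, and was 6437 with array weights. Expressed as TPM, 29.1% of called genes were higher, against 41.8%. The KRT8/KRT18 difference was -0.16 and -0.27 after the GC and length correction; the cause was not tested. It ranged from -0.19 to -0.13 on leaving out a library. The members' share of keratin FPKM differed by -7.34 percentage points between groups, and by -5.58 with levels rescaled to principal transcript lengths, an alternative added after seeing the data. The replicate block left the calls of the 6 tested members as they were (3 lower, 0 higher), and the sign-flip test of the KRT8/KRT18 difference gave an exact p of 0.25, the smallest that 3 pairs allow. Depth is known only as an estimate, and the number of libraries limits precision.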

Other observations

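Retinoids are known to raise KRT13 and KRT19 in cultured keratinocytes, so genes of retinoid handling were counted. Of 12 tested genes 5 were higher, 1 was lower and 6 did not pass, with a median log2 value of 0.18 against -0.01 over all tested genes, of which 9.58% were higher and 13.3% lower. CYP26B1, which degrades retinoic acid, went from 2.97 ± 0.133 to 5.31 ± 0.267 FPKM (log2 fold change 0.67; limma, Benjamini-Hochberg adjusted p = 0.000497). STRA6, a membrane receptor for retinol uptake, went from 6.43 ± 1.02 to 12.4 ± 0.577 FPKM, and DHRS9, a retinol dehydrogenase, from 2.48 ± 0.225 to 3.80 ± 0.202 FPKM. The receptor genes RARG and RXRA rose to 140% and 139% of control. CRABP2, a carrier of retinoic acid, was the gene that fell, from 3.82 ± 0.722 to 2.19 ± 0.339 FPKM (log2 fold change -0.59, adjusted p = 0.00804, and 0.0628 without knockout 2). Whether the response to retinoids differed between the groups was not tested. CYP26A1 and RARB, both retinoic acid targets, were listed at 0.196 to 0.548 and 0.008 to 0.049 FPKM and were not tested. The counts were the same with the replicate block, and became 5 higher and 2 lower with GC and length corrected and 6 higher and 2 lower without control 3 (18.7% and 21.5% of all tested genes).

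Of 27 tested transcription factors known to act on keratin genes, JUN (135% of control) and TFAP2C (118%) were higher, OVOL1 (69.2%) was lower and 24 did not pass, against 9.58% higher and 13.3% lower of all tested genes. TFAP2C lost its call with the replicate block (adjusted p = 0.0550), as TPM (0.167) and without any 1 library other than control 3 (0.0702 to 0.180). OVOL1 lost its call without knockout 1 (0.0567) or knockout 3 (0.0575). FOXA1 passed with the block (0.0478). With the block 4 were higher and 2 lower, with GC and length corrected the counts were 5 and 2, and without control 3 they were 8 and 3, against 18.7% and 21.5% of all tested genes.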
